A study of Mus musculus with 3 samples.

Results

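The actin cytoskeleton genes described here are 51 genes, taken as a named list from 55536 Ensembl genes: the cytoplasmic actins and the genes for monomer binding, nucleation, elongation, capping, bundling, contraction and adhesion of actin filaments. All 51 symbols were found in the tables, and all 51 had reads in every library. They were measured in macrophages derived from bone marrow of the mouse strain C57BL/6J. The RNA came from the cytosolic fraction of cells given Lipid A, the membrane anchor of bacterial lipopolysaccharide and a ligand of the receptor TLR4, at 100 ng/ml for 10 min. Total RNA-seq after ribosomal RNA depletion was made from 1 µg of RNA in 3 biological replicates. All 3 libraries belong to 1 group, with the same strain, fraction, dose and time, and no untreated cells and no second time point were analysed here. The values are therefore levels in stimulated cells and not responses to Lipid A. The labels give 1 donor identifier for all 3 libraries and do not say whether replicates came from separate animals or cultures. Tests between them thus measure only the spread between these samples, which may be technical. Age and sex were not collected.

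Actin exists as monomers and as filaments that grow at their barbed end and shrink at their pointed end. Profilin and thymosins hold monomers, the Arp2/3 complex branches new filaments from old ones when WASP or WAVE proteins activate it, and formins and Ena/VASP proteins lengthen them. Capping proteins stop growth, cofilin and its partners take filaments apart, and myosin II pulls on them. Macrophages use this machinery to crawl, to ruffle, to build the adhesions called podosomes and to engulf particles. Small GTPases, among them Rac, Cdc42 and the product of Rhoa, steer it, and the monomer pool itself regulates the transcription factor SRF through its cofactors of the MRTF family.

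Gene counts totalled 33825547, 54667365 and 43176007 in replicates 1, 2 and 3. Levels are given as deposited TPM, a scale that divides counts by effective transcript length and gives every library the same total. Protein-coding genes held 24.2%, 24.1% and 26.3% of TPM in replicates 1, 2 and 3. Each of the 10 macrophage markers reached 1 TPM in all 3 libraries, and their summed level lay between 7936 and 9108 TPM. Smooth muscle markers, which bear on muscle actin, were at 1 TPM in 0 of 5, with a summed level of 0.23 to 0.35 TPM and Des at 0 counts. Markers of B cells were at 1 TPM in 0 of 4, of T and NK cells in 0 of 5 and of stromal cells in 0 of 6, with Pdgfra at 0 counts. Of 8 neutrophil markers, S100a8, S100a9 and Ngp reached 1 TPM in all 3 libraries. The level summed over the 8 was 24.3, 38.8 and 36.8 TPM in replicates 1, 2 and 3, with Ly6g at 0 counts. Of 5 megakaryocyte and platelet markers Pf4 alone passed 1 TPM, with a mean of 193 TPM, and of 5 dendritic cell markers Batf3 alone did. The part of other cells in the levels below was not tested. In bulk RNA, fewer cells of a type and less RNA per cell cannot be told apart.

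As a group the actin genes were abundant. Their levels summed to 8633, 8630.2 and 10008 TPM in replicates 1, 2 and 3, which was 3.65% ± 0.138 of all protein-coding TPM (SD, n = 3). Their median was 82.5 ± 4.45 TPM, against 7.58 ± 0.439 TPM for the 9164 protein-coding genes at 1 TPM or more in every library (SD, n = 3 each). Of the 51, 48 were above that second median in every library, and 48 reached 10 TPM in all 3 libraries. In a ranking of all protein-coding genes by mean TPM, 40 of 51 were among the first 1000, which hold 10.9% of the 9164 detected genes. The mean level was 100 TPM or more for 22 genes. The 3 highest were Tmsb4x, Actb and Actg1, and the 3 lowest were Fscn1, Vcl and Ezr. Tmsb4x and Actb alone made up 39.9% ± 1.25 of the group's TPM.

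**Figure D1:**
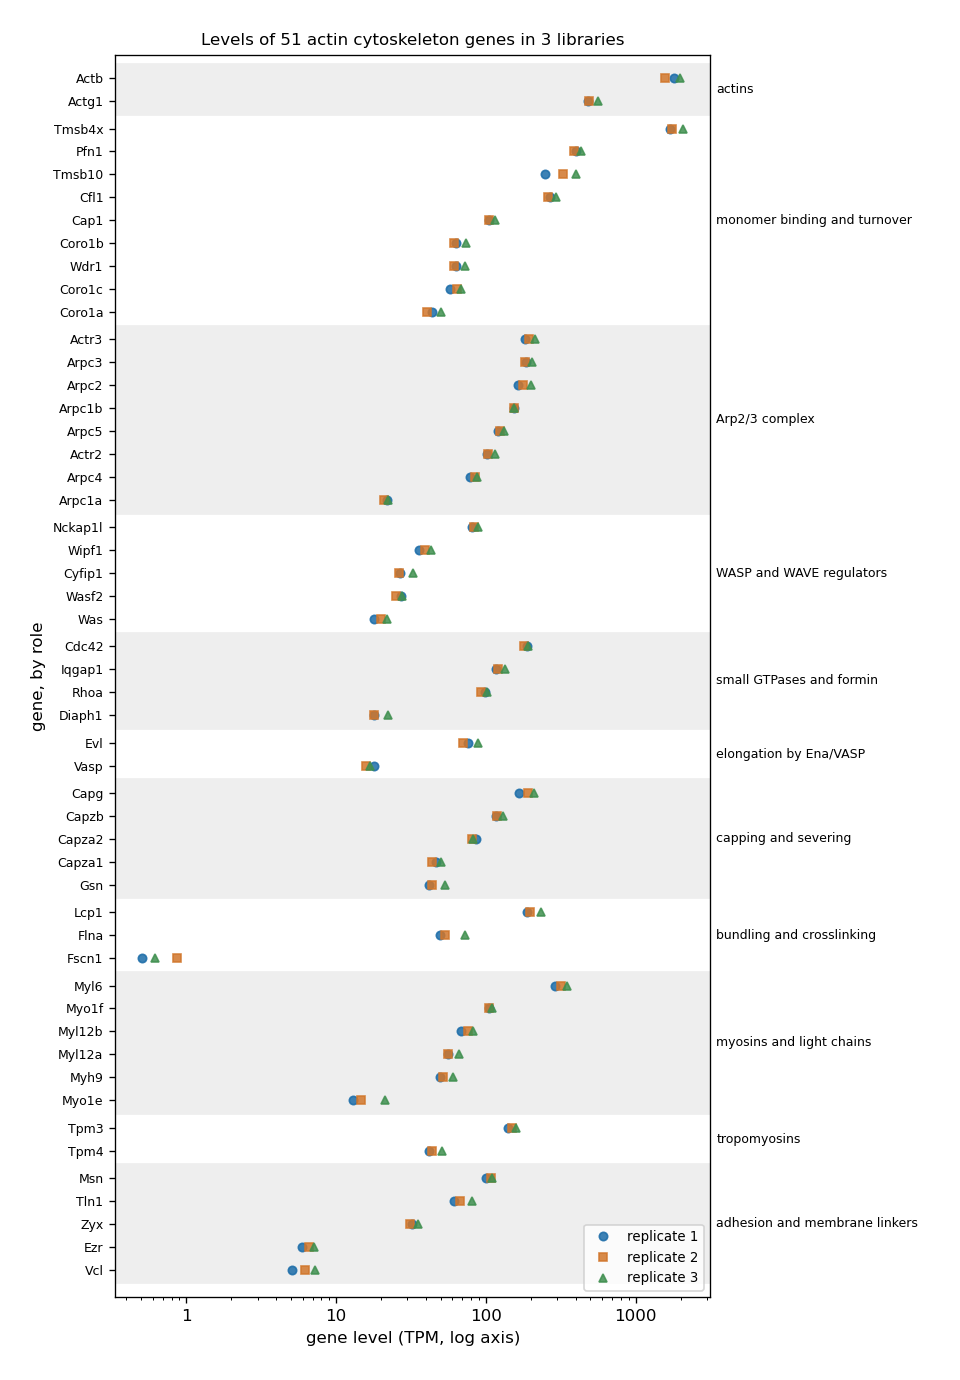
Level of each actin cytoskeleton gene in TPM on a log axis, 1 marker per library, with genes grouped by role and ordered by mean within a role. Tmsb4x and Actb lie between 1577 and 2086 TPM in every library, and Fscn1 lies between 0.51 and 0.87 TPM.

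The actins were represented by the cytoplasmic isoforms. Actb, which encodes beta-actin, lies on the minus strand of chromosome 5 (142903115 to 142906754, mm10). It had 1806, 1577 and 1978 TPM in replicates 1, 2 and 3. Actg1, which encodes gamma-actin, lies on the minus strand of chromosome 11 (120345690 to 120348542) and had 480.3, 492 and 558 TPM. Every Actb value lay above every Actg1 value, and the within-library ratio of Actb to Actg1 was 3.50 ± 0.278 (SD, n = 3). By rank of mean TPM, Actb was 12 and Actg1 43 among 22028 protein-coding genes. The muscle actins Acta1, Acta2, Actc1 and Actg2 were below 1 TPM in every library, with Acta2 the highest at 0.09, 0.05 and 0.10 TPM and Actc1 without a count.

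The coding sequences of Actb and Actg1 show how far the leading transcripts of these genes differ from each other. Both are 1128 bases long in the GENCODE M21 transcripts Actb-201 and Actg1-202, and 1000 of these bases are the same. Of the 128 that differ, 120 are at the last base of a codon, 8 at the first and 0 at the middle base. The longest run of bases that both transcripts share is 62, so any longer stretch of either holds a base that separates them. Sequences of other genes, pseudogenes included, were not compared with them. The first 90 bases of each coding sequence follow, 5′ to 3′ on the coding strand, and capitals mark the 16 bases that differ between the genes.
Actb: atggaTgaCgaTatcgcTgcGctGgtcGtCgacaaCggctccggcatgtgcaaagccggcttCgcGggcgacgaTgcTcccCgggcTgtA
Actg1: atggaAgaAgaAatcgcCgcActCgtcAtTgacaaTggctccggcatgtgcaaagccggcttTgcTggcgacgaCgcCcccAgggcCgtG

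Genes that bind monomers or renew filaments held the largest summed level of any role, 3205 ± 339 TPM (SD, n = 3). Tmsb4x encodes thymosin beta 4, the main monomer-sequestering peptide of blood cells, and lies on the X chromosome (167207093 to 167209315, minus strand). It had 1708, 1746 and 2086 TPM in replicates 1, 2 and 3. Tmsb10, the related thymosin beta 10 gene on chromosome 6 (72957347 to 72958748, minus strand), had 250.2, 329 and 402 TPM. The lowest Tmsb4x value was above the highest Tmsb10 value, and the within-library ratio of Tmsb4x to Tmsb10 was 6.83, 5.31 and 5.18. Both coding sequences are 135 bases long and 70.4% identical, and the longest run shared by their transcripts is 10 bases. They are given whole, 5′ to 3′, with the 40 differing bases in capitals.
Tmsb4x: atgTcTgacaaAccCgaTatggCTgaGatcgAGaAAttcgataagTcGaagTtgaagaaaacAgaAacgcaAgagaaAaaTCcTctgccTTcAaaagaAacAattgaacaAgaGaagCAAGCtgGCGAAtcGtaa
Tmsb10: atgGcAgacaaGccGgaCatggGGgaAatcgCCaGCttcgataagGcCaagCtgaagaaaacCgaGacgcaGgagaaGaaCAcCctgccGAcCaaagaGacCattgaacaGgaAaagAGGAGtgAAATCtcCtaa

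Pfn1, profilin 1, which feeds ATP-actin monomers to growing ends, averaged 407 ± 21.5 TPM. Cfl1, cofilin 1, which severs filaments, averaged 275 ± 16.6 TPM. Of the cofilin helpers, Cap1, which recycles monomers, averaged 108 ± 5.91 TPM and Wdr1, the mouse AIP1, 65.9 ± 5.89 TPM (SD, n = 3 for each). Of the coronins, which act on Arp2/3 branches and on cofilin, the listed genes Coro1a, Coro1b and Coro1c lay between 40.7 and 73.7 TPM. Coro1a, the form known best from blood cells, had 43.7, 40.7 and 50.3 TPM in replicates 1, 2 and 3. Coro1b had 63.8, 61.9 and 73.7 TPM, and Coro1c had 57.7, 64.6 and 68.9 TPM. Coro1a was the lowest of these coronins in every library, at 0.675 ± 0.0150 times Coro1b and 0.706 ± 0.0675 times Coro1c (SD, n = 3). Coro1b and Coro1c overlapped in their values. The gap to Coro1c depends on transcript length. The mean log2 difference of Coro1a minus Coro1c was -0.50 in TPM and -1.73 on counts not divided by length. Among the 11 other genes listed for this role, 9 reached 1 TPM in all 3 libraries. Dstn, the cofilin relative destrin, was the highest with 40.7, 39.3 and 41.8 TPM. The other coronin genes averaged 19.0 TPM for Coro7, 12.4 TPM for Coro2a and 1.54 TPM for Coro2b. Cap2 had no count.

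All 8 listed subunits of the Arp2/3 complex were well measured, between 21.9 ± 0.733 TPM for Arpc1a and 197 ± 16.6 TPM for Actr3 (SD, n = 3). Of the actin-related subunits, Actr3 (Arp3) had 182, 196 and 215 TPM and Actr2 (Arp2) had 102, 104 and 115 TPM in replicates 1, 2 and 3, a ratio of Actr3 to Actr2 of 1.84 ± 0.0601. Actr3 was above Actr2 in every library. The ArpC1 subunit comes from neighbouring genes on the plus strand of chromosome 5, Arpc1b (145114215 to 145130705) and Arpc1a (145083830 to 145108761). Arpc1b had 154, 156 and 155 TPM, and Arpc1a had 22.1, 21.03 and 22.4 TPM. Arpc1b thus exceeded Arpc1a by 7.09 ± 0.270 times, the largest mean ratio among the 12 pairs of related genes apart from Ezr and Msn. Arpc3 averaged 191 ± 10.9 TPM, Arpc2 181 ± 19.4 TPM, Arpc5 126 ± 5.95 TPM and Arpc4 83.9 ± 4.42 TPM. The remaining isoforms were low: Arpc5l had 9.75, 11.3 and 11.6 TPM, and Actr3b 0.02, 0.09 and 0.07 TPM.

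Summing the isoforms of each subunit position, the 7 positions of the complex spanned 83.9 ± 4.42 TPM for ArpC4 to 197 ± 16.6 TPM for Arp3, a ratio of highest to lowest position of 2.36 ± 0.0832 (SD, n = 3). The values of ArpC2 overlapped those of ArpC1 and those of ArpC3, whereas ArpC4 was the lowest position in every library. The complex is built with 1 copy of each position, but the values are RNA levels and were not set against protein.

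**Figure D2:**
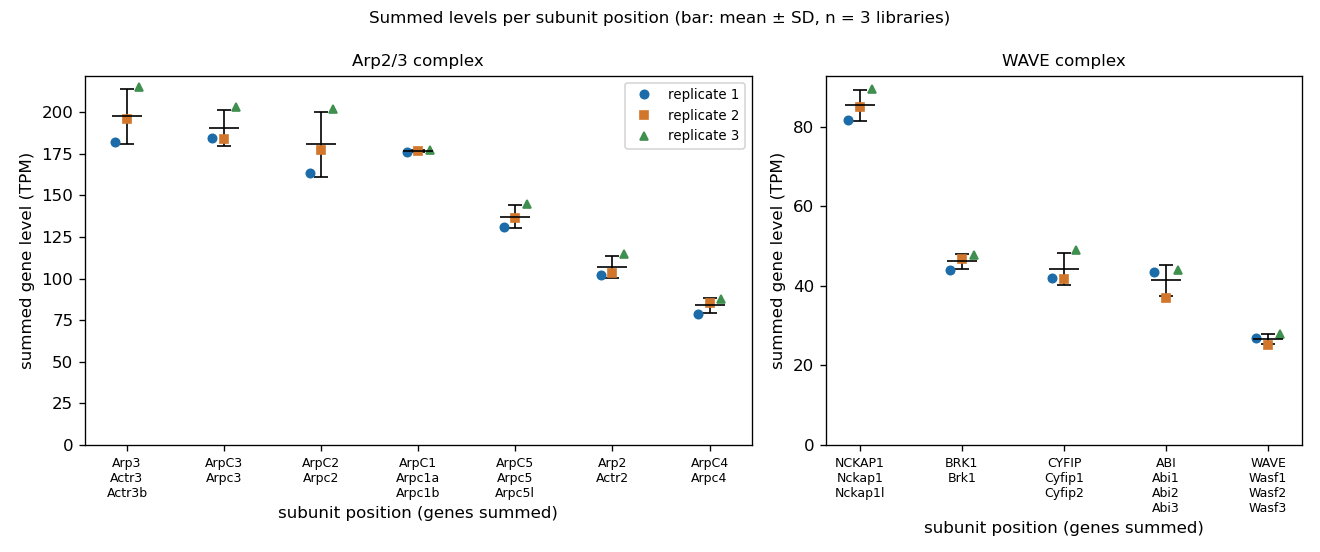
Summed TPM of the genes at each subunit position of the Arp2/3 complex (left) and the WAVE complex (right), with 1 marker per library and the mean ± SD over 3 libraries. Arp2/3 positions lie between 79.0 and 215 TPM, and WAVE positions between 25.2 and 89.5 TPM.

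The listed WASP and WAVE regulators of Arp2/3 had a lower median, 28.8 ± 3.65 TPM against 141 ± 3.23 TPM for the Arp2/3 genes (SD, n = 3). The ranges overlapped, and all of these regulators but Was had a higher mean than the Arp2/3 gene Arpc1a. Was encodes WASP, the Cdc42 effector of blood cells, and averaged 20.0 ± 1.92 TPM. Wipf1, its stabilising partner WIP, averaged 39.6 ± 3.65 TPM. In the WAVE complex, which Rac activates, Wasf2 averaged 26.7 ± 1.32 TPM, Cyfip1 28.7 ± 3.68 TPM and Nckap1l, the blood cell form of the Nck-associated subunit, 84.4 ± 3.81 TPM (SD, n = 3 for each). Nckap1, the form of other tissues, had 0.66, 0.98 and 0.99 TPM, below every Nckap1l value. Wasf1 was below 1 TPM in every library, and Wasf3 had no count, so Wasf2 was the only WAVE gene at 1 TPM or more. Summed over isoforms, the 5 positions of the WAVE complex differed by 3.20 ± 0.173 times between the highest, NCKAP1 at 85.3 ± 3.97 TPM, and the lowest, WAVE at 26.7 ± 1.32 TPM. The CYFIP, ABI and BRK1 positions lay between them, at 44.2 ± 4.04, 41.4 ± 3.89 and 46.1 ± 1.88 TPM. Of the 14 other regulators listed, 9 reached 1 TPM in all 3 libraries. Hcls1, the blood cell relative of cortactin, had the highest mean with 43.6, 46.4 and 51.9 TPM, and its values overlapped those of the WAVE subunit gene Brk1, at 44.03, 46.7 and 47.7 TPM. Cttn, cortactin itself, had 0.42, 0.49 and 0.92 TPM. Wipf3 had no count.

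Among the GTPases, Cdc42 averaged 186 ± 5.56 TPM and Rhoa 98.1 ± 4.59 TPM. Iqgap1, a scaffold that binds active Cdc42 and Rac, averaged 124 ± 9.60 TPM, and Diaph1, a formin, which lengthens unbranched filaments, 19.4 ± 2.40 TPM (SD, n = 3 for each). Of the 24 other genes listed for this role, 22 reached 1 TPM in all 3 libraries. Arhgdia, which keeps small GTPases inactive in the cytosol, was the highest of them with 185, 183 and 192 TPM. The 2 below 1 TPM in some libraries were Diaph3 and Iqgap3, whose values are given with the differences between libraries.

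In the Ena/VASP family, whose proteins protect barbed ends from capping, Evl had 76.5, 70.9 and 89.0 TPM and Vasp 17.96, 15.9 and 16.8 TPM in replicates 1, 2 and 3. Evl was above Vasp in every library, at 4.67 ± 0.560 times its level (SD, n = 3). This ratio depends on transcript length. Of Evl TPM, 44.6% lay on Evl-207, which is 569 bases long, whereas Vasp-201 has 2215 bases. The mean log2 difference was 2.15 in TPM and 1.14 on counts not divided by length. The relative Enah, or Mena, stayed at 0.10 TPM or less in every library.

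Filament capping genes ranged from Gsn to Capg. Capg, a macrophage capping protein that caps without severing, averaged 189.7 ± 22.1 TPM, and Gsn, gelsolin, which caps and severs, 46.1 ± 6.18 TPM. The capping protein is a heterodimer of an alpha chain from Capza1 or Capza2 and a beta chain from Capzb. Capza2 had 86.4, 81.1 and 82.0 TPM and Capza1 had 46.5, 43.5 and 50.1 TPM, so Capza2 was higher in every library by 1.78 ± 0.130 times. Capzb averaged 122 ± 7.55 TPM (SD, n = 3 for each). Of the other capping and severing genes, Add1, an adducin, was the highest with 32.3, 32.7 and 35.8 TPM. Scin, Vil1, Avil and Capza3 were below 1 TPM in every library, and Capza3 had no count.

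Of the crosslinking genes, Lcp1, the L-plastin of white blood cells, averaged 206 ± 24.1 TPM and Flna, filamin A, 58.6 ± 12.6 TPM. Fscn1, fascin, the bundling protein of filopodia and of mature dendritic cells, was the lowest gene of the list with 0.51, 0.87 and 0.62 TPM in replicates 1, 2 and 3. It lies on the plus strand of chromosome 5 (142960343 to 142973185), near Actb, and rested on 60, 174 and 112 reads. It was the only 1 of the 51 genes below 1 TPM, and it was below it in every library. Of the 12 other crosslinkers, Marcks, a membrane-bound actin binder, was the highest with 84.6, 76.9 and 98.6 TPM. Fscn2, Flnc, Actn2 and Pls1 were below 1 TPM in every library, and Actn2 had no count.

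Nonmuscle myosin II is built from a heavy chain and 2 kinds of light chain. Myh9, a heavy chain, averaged 54.1 ± 5.58 TPM. The heavy chain genes Myh10, Myh14 and the smooth muscle form Myh11 were below 1 TPM in every library, and Myh14 had no count. Myl6, the essential light chain, had the highest level of its role at 319 ± 29.4 TPM. The regulatory light chains come from Myl12a, with 56.3, 55.8 and 66.6 TPM, and Myl12b, with 68.6, 75.9 and 82.3 TPM. Myl12a was lower than Myl12b in every library, at 0.789 ± 0.0465 times its level. Counting protein-coding transcripts alone, an alternative added after the data were seen, turned this round: Myl12a had 55.8, 55.4 and 66.3 TPM and Myl12b 47.1, 42.5 and 48.8 TPM. Myl9, the smooth muscle form, had no count. Among single-headed class I myosins, which tie filaments to membranes, Myo1f had 104, 105 and 111 TPM and Myo1e had 13.0, 14.7 and 21.3 TPM. Myo1f exceeded Myo1e by 8.06, 7.18 and 5.20 times in replicates 1, 2 and 3. Myo1d was below 1 TPM in every library. The highest of 9 other myosin genes was Myo5a, an organelle motor, with 206, 204 and 208 TPM.

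Myl12a and Myl12b lie side by side on the minus strand of chromosome 17 (70993656 to 71002878 and 70973133 to 70990890). They are nearly alike, with 501 of 519 coding bases the same and a shared run of 120 bases in their transcripts. A separate entry, also named Myl12b, spans 70974119 to 71002208 and shares 462 exon bases with Myl12a and 739 with Myl12b. It was given 40.7, 42.0 and 49.4 TPM, so the division of reads among these entries is uncertain and the ratio above rests on it. The first 90 coding bases follow, with the differing bases, 4 in number, in capitals.
Myl12a: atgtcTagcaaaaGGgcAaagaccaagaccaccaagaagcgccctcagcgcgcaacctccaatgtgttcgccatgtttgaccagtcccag
Myl12b: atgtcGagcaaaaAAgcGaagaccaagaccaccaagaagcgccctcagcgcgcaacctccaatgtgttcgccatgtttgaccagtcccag

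Tropomyosins lie along filaments and decide which proteins reach them. Tpm3 had 142, 149.6 and 159 TPM and Tpm4 had 41.7, 43.7 and 51.1 TPM in replicates 1, 2 and 3, a ratio of Tpm3 to Tpm4 of 3.31 ± 0.179 (SD, n = 3). Tpm3 was higher in every library. Tpm1 followed with 16.8, 16.2 and 20.2 TPM, and Tpm2 was below 1 TPM in every library.

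Adhesion genes spanned a wide range. Tln1, talin, which joins integrins to actin and activates them, averaged 70.01 ± 10.4 TPM, and Zyx, zyxin, 32.9 ± 2.11 TPM. Vcl, vinculin, which reinforces the talin link under load, had 5.12, 6.23 and 7.27 TPM. Every Tln1 value was above every Zyx value and every Zyx value above every Vcl value. Vcl shares 2090 exon bases with Ap3m1 on the opposite strand, which had 12.3 ± 0.866 TPM, and strandedness is not given in the sources used here, so reads of this stretch cannot be told apart. Of the proteins that tie actin to the plasma membrane, Ezr, ezrin, had 5.96, 6.60 and 7.10 TPM, and Msn, moesin, had 101, 109 and 111 TPM. Ezr was at 0.0613 ± 0.00259 times the level of Msn, the widest gap among the 12 pairs. Of the 10 other adhesion genes, Itgb2, the beta chain of the leukocyte integrins, was the highest with 106, 114 and 132 TPM. Tln2, Parva and Fermt2 were below 1 TPM in every library, and Parva and Fermt2 had no count.

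The 12 pairs of related genes kept 1 direction in all 3 libraries, and in 8 of them the gene named first was the higher. Differences were taken as log2(TPM + 1), which makes those of low genes look smaller. The difference was 1.80 ± 0.12 for Actb minus Actg1, 2.77 ± 0.05 for Arpc1b minus Arpc1a, 2.51 ± 0.22 for Tmsb4x minus Tmsb10 and -3.84 ± 0.05 for Ezr minus Msn (SD, n = 3 each). An exact two-sided sign-flip permutation test gave p = 0.25 for every pair, the smallest that 3 libraries allow, so the design cannot reach 0.05. The mean difference of each pair was larger than its SD between libraries. Myl12a minus Myl12b was -0.34 ± 0.09 over all transcripts and 0.35 over protein-coding ones.

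**Figure D3:**
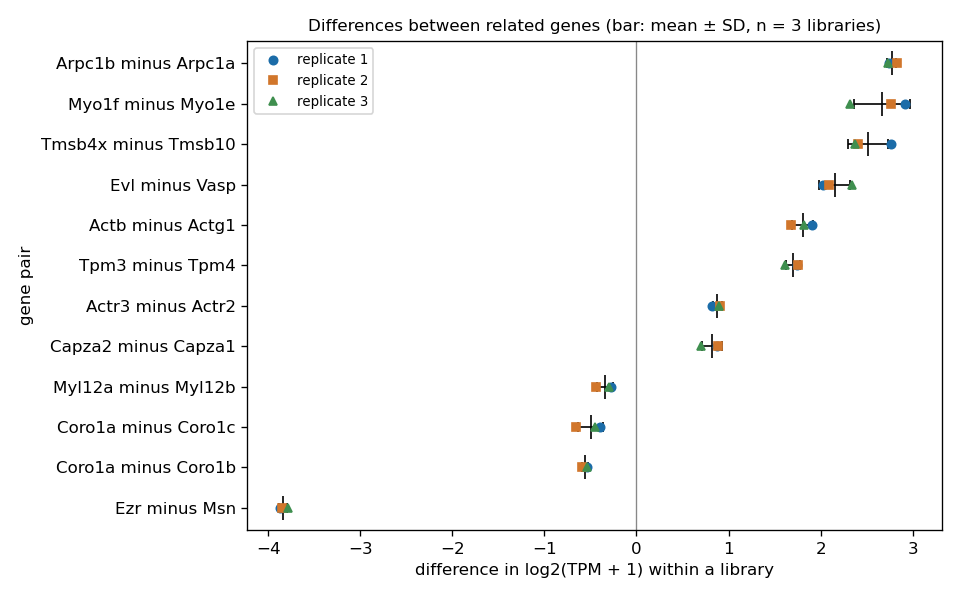
Difference in log2(TPM + 1) between related genes within a library, 1 marker per library, with the mean ± SD over 3 libraries. All markers of a pair lie on the same side of 0, from -3.84 on average for Ezr minus Msn to 2.77 for Arpc1b minus Arpc1a.

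Of the wider list of 102 other actin-related genes that matched a symbol, 70 reached 1 TPM in all 3 libraries and 29 were below 1 TPM in every library. The 29 are named above by role. The SRF group, which controls many actin genes, was present. Srf itself had 5.20, 5.16 and 5.87 TPM. Its actin-sensing cofactors Mrtfa, with 18.2, 17.5 and 19.5 TPM, and Mrtfb, with 8.68, 8.93 and 9.65 TPM, were higher in every library.

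The libraries were then compared gene by gene with a chi-square test of rounded expected counts against TMM library sizes, Benjamini-Hochberg adjusted over 13494 genes. A call at 0.05 means that libraries differed by more than counting error. It was made for 47 of the 51 actin genes, against 49.2% of all genes tested. Abundant genes are called more often, and among genes at a mean of 10 TPM or more the call was made for 44 of 48 actin genes, against 72.2%. These sets were not matched for level above that limit, and the median of the 51 actin genes was 82.5 TPM. The shares therefore do not compare genes of like level. Pfn1, Cap1, Arpc1a and Myl12b were not called. In the second quantification Pfn1 and Cap1 were called, while Wasf2, Rhoa and Capza2 no longer were. Pfn1 was the steadiest, with 477, 480.4 and 481 counts scaled by TMM library size (CPM) in replicates 1, 2 and 3 and a chi-square adjusted p of 0.736.

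Most of these differences were small. The median coefficient of variation was 4.70% for the actin genes, against 7.78% over all genes tested and 5.17% over those at 10 TPM or more. The highest library reached 1.5 times the lowest for 3 of the 51, Tmsb10, Fscn1 and Myo1e, against 19.9% of all genes tested. At 10 TPM or more it was 2 of 48 actin genes, against 4.4% of genes. Tmsb10 had 154, 222 and 243 CPM in replicates 1, 2 and 3, a ratio of highest to lowest of 1.57 (chi-square adjusted p = 5.08e-165). Replicate 1 was the low library. Myo1e had 105, 121 and 162 CPM, a ratio of 1.55 (chi-square adjusted p = 3.68e-117), with replicate 3 standing above the others. Fscn1 had 1.73, 3.26 and 2.59 CPM, a ratio of 1.88 (chi-square adjusted p = 0.000324), on few reads. Flna came just below the limit, with 609, 718 and 902 CPM and a ratio of 1.48, again with replicate 3 the highest. Without replicate 1 this ratio was reached by 0 of the 51, against 8.32% of all genes tested. Without replicate 3 Fscn1 alone reached it, against 9.997%, and without replicate 2 Tmsb10 and Myo1e did, against 12.5%.

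The direction was shared by many of the actin genes. Replicate 3 was the highest library for 29 of 51, replicate 2 for 13 and replicate 1 for 9, against 34.7%, 27.5% and 37.7% of all genes tested. At 10 TPM or more, replicate 3 was the highest for 34.8%, replicate 2 for 32.2% and replicate 1 for 32.9% of genes. Replicate 1 was the lowest for 34, replicate 2 for 11 and replicate 3 for 6, against 38.3%, 27.3% and 34.4% of all genes tested and 45.4%, 21.6% and 33% at 10 TPM or more. The median deviation from the gene's mean was -0.05, 0.00 and 0.05 on the log2 CPM scale for replicates 1, 2 and 3 in the actin genes, and -0.02, 0.01 and 0.00 in all genes at 10 TPM or more. Tln1 and Vcl were likewise lowest in replicate 1 and highest in replicate 3, with Tln1 at 931, 1026 and 1149 CPM and Vcl at 49.3, 60.1 and 64.2 CPM. Arpc1b went the other way, with 498, 465 and 438 CPM, as did Cdc42 with 671, 650.0 and 628 CPM and Vasp with 67.9, 60.7 and 58.3 CPM.

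**Figure D4:**
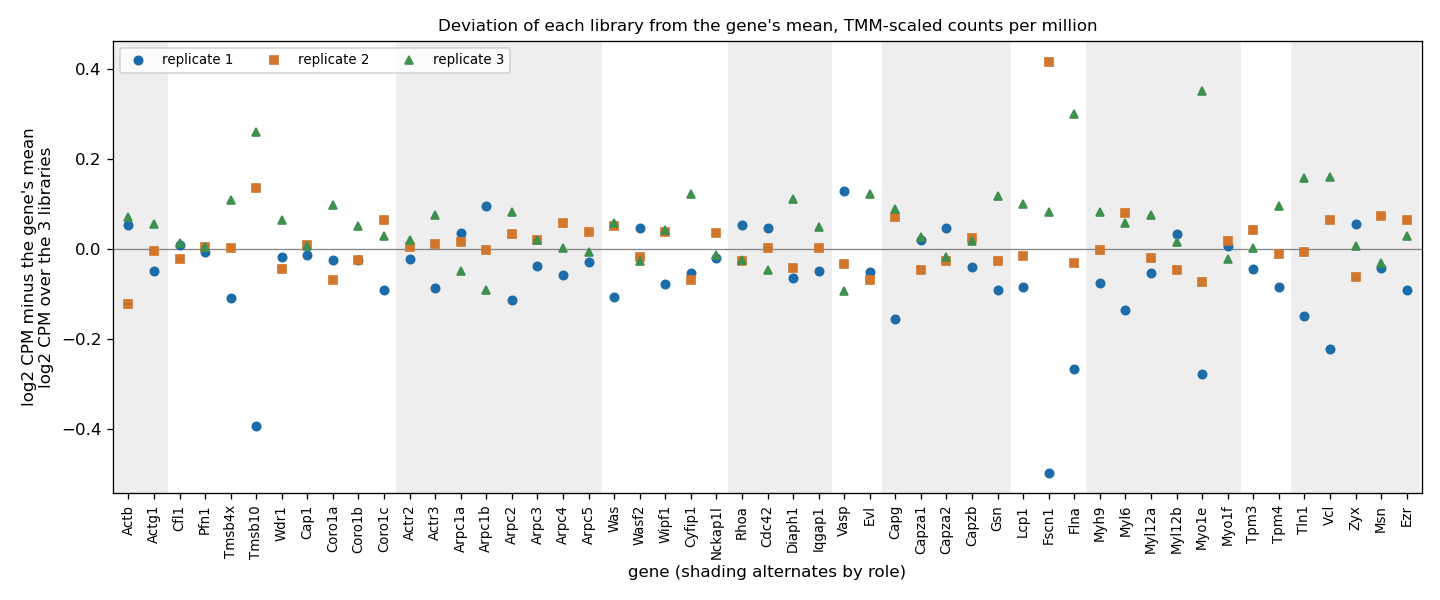
Log2 CPM of each library minus the gene's mean log2 CPM over 3 libraries, for all 51 actin genes in order of role. Replicate 3 is highest for 29 genes and replicate 1 lowest for 34, and Tmsb10, Fscn1, Flna and Myo1e spread the most.

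Other measures also differed between these libraries, in differing order. Their summed levels are given in TPM, whereas the differences above are in CPM. The 10 macrophage markers summed to 9108, 7936 and 8791 TPM in replicates 1, 2 and 3. The summed level of 4 nuclear RNAs, Malat1 the highest, was 648, 427 and 341 TPM in replicates 1, 2 and 3. That of 5 cell division genes was 67.5, 78.0 and 126 TPM, and that of the 5 megakaryocyte and platelet markers, nearly all from Pf4, was 175, 163 and 244 TPM. In the wider list, 56 of 80 genes tested, or 70%, were called by the chi-square test, against 49.2% of all genes tested. The ratio of 1.5 was reached by 10 of the 80, against 19.9% of all genes tested. These included Diaph3, a formin, with 5.69, 5.38 and 15.4 CPM, and Iqgap3, a relative of Iqgap1, with 7.28, 6.54 and 16.2 CPM, both highest in replicate 3 like the division genes. Itgam, the integrin alpha M of macrophages, had 197, 198 and 314 CPM, and Cttn had 2.14, 2.57 and 4.32 CPM. Marcksl1, a relative of Marcks, went the other way with 43.0, 26.4 and 18.7 CPM, as did Pfn2 with 4.39, 3.66 and 2.75 CPM. Nckap1 reached 1.66 times on 4.82, 7.99 and 7.35 CPM. Acta2, Scin and Tln2 also passed 1.5 times, at under 1 CPM in every library, and were not called. The part of nuclear RNA, of dividing cells and of megakaryocytes or platelets in the differences of the actin genes was not tested.

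The 51 genes have 370 annotated transcripts. For 33 genes 1 transcript held 90% or more of the gene's transcript TPM, and this was so in both transcript tables for 24. Actb-201 held 94.7% ± 4.98 of Actb in the second table and 99.2% ± 0.0846 in the first (SD, n = 3). For 12 genes more than 1 transcript held 20% or more in the first table, and for 8 of them, Arpc2, Arpc4, Capg, Diaph1, Evl, Lcp1, Myl12b and Wipf1, in the second as well. Arpc2 was split alike in both, with Arpc2-203 at 69.7% ± 1.67 in the second table and 71.1% ± 1.56 in the first, and Arpc2-201 at 30.1% ± 1.67 and 28.7% ± 1.52. Lcp1-209 held 68.3% ± 4.003 in the second table and 58.0% ± 3.94 in the first, with Lcp1-206 at 26.3% ± 3.87 and 40.2% ± 3.93. Capg-201 held 60.5% ± 4.66 and 69.1% ± 4.38, with Capg-202 at 33.4% ± 4.31 and 26.5% ± 3.95. Arpc2, Lcp1 and Capg thus gave the same leading transcript and the same runner-up in each table.

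In Arpc4 the leading transcript Arpc4-203 held 50.8% ± 2.88 in the second table and 43.2% ± 3.62 in the first. Arpc4-204 held 36.0% ± 3.04 and 27.5% ± 1.90, and Arpc4-201 13.1% ± 1.74 and 29.2% ± 2.24, so the order of these changed between tables. Evl-207 held 37.0% ± 3.51 in the second table and 44.6% ± 1.53 in the first, and Evl-206 32.5% ± 2.77 and 29.8% ± 1.77. Wipf1-203 held 46.7% ± 4.04 and 43.4% ± 5.57 of Wipf1, and Wipf1-201 25.9% ± 3.75 and 36.8% ± 3.97 (SD, n = 3 for each).

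Diaph1 was the only gene of the 51 whose leading transcript differed between tables. It was Diaph1-201 at 51.2% ± 3.32 in the second and Diaph1-205 at 35.4% ± 0.842 in the first. Diaph1-203 held 0.428% ± 0.742 in the second and 31.6% ± 3.44 in the first. In Actg1, Actg1-202 held 96.8% ± 2.62 in the second table and 69.9% ± 8.79 in the first, and Actg1-204 1.75% ± 3.02 and 28.7% ± 9.20. The first table gave Actg1-204 a share of 21.3%, 39.0% and 25.9% in replicates 1, 2 and 3. Cfl1-202, at 14.2% ± 1.30 and 24.3% ± 0.0856, Arpc1b-201, at 18.7% ± 2.87 and 28.6% ± 4.73, and Cyfip1-201, at 16.8% ± 0.810 and 36.4% ± 0.550, reached 20% in the first table only.

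**Figure D5:**
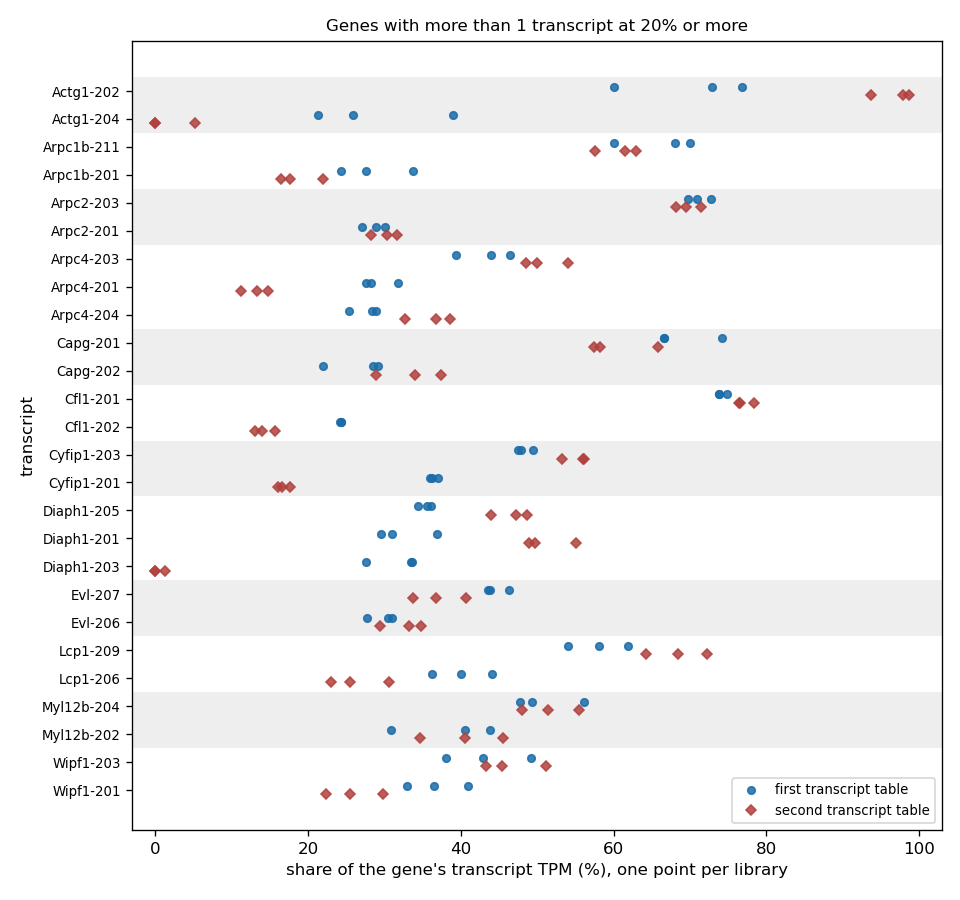
Share of the gene's transcript TPM held by each transcript at 20% or more in the first table, 1 marker per library and table, for the 12 genes with more than 1 such transcript. Actg1-204 and Diaph1-203 are at 21.3% or more in every library of the first table and at 5.24% or less in the second.

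Transcripts of a biotype other than protein-coding, called non-coding here, took little of these genes. The median share was 0.807% ± 0.0974 over the 50 actin genes at 5 TPM or more, against 1.90% ± 0.591 over the 5902 protein-coding genes at that level (SD, n = 3 libraries). It was above 10% for 4% of the actin genes, 2 in number, against 24.6% of the protein-coding genes. These 2 were Myl12b and Flna. In Myl12b the retained-intron transcript Myl12b-202 held 40.2% ± 5.48 in the second table and 38.4% ± 6.75 in the first, beside the coding Myl12b-204 at 51.6% ± 3.75 and 51.1% ± 4.45. In Flna non-coding transcripts held 2.81% ± 2.19 in the second table and 26.8% ± 4.77 in the first, so this share depended on the quantification. In the second table the actin genes above 10% were Myl12b and Arpc1b, or 4%, against 31.0% of the protein-coding genes. Arpc1b was at 15.03% ± 8.14 in the second table and 4.57% ± 1.26 in the first. The median share in the second table was 1.29% ± 0.711 for the actin genes, against 3.72% ± 1.65 for the protein-coding genes. Above 5 TPM the actin and protein-coding genes were not matched for level, and the median of all 51 actin genes was 82.5 TPM. The shares therefore do not compare genes of like level.

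At the gene level both quantifications gave close values once each was rescaled over protein-coding genes. Of 10271 genes compared, 9.82% were 1.5-fold or more apart, and of the 50 actin genes among them 0 were. Genes were not matched for level here either. The log2 ratio of the second to the first ranged from -0.28 for Flna to 0.33 for Capza2. Capza2 had 423 ± 39.7 rescaled TPM in the second and 335 ± 22.1 in the first, and Flna 194 ± 41.2 and 234 ± 38.7 (SD, n = 3 each). Gene overlaps are a separate limit. Exons of 24 of the 51 genes overlapped another annotated gene, 21 on the opposite strand and 5 on the same strand, some on both. The overlapping gene reached 20% of the actin gene's TPM for 7: Cap1, Coro1a, Cyfip1, Rhoa, Myl12a, Myl12b and Vcl.

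Promoters were examined for the CArG box, the site that SRF binds and through which actin monomers feed back on actin genes. RefSeq windows of 300 bases, 250 before and 50 after the annotated start (GRCm38.p6), matched 46 of the 51 genes, all but Actb, Coro1b, Cyfip1, Diaph1 and Nckap1l. At least 1 CArG box on either strand was found for 5 of these 46, or 10.9%: Actg1, Arpc4, Myl6, Myo1e and Vcl. The share was 1.81% of all 27025 genes with a window and 1.46% of the 7349 protein-coding ones at 1 TPM or more. The GC box GGGCGG, which Sp1 binds, was found for 37 of 46 genes, or 80.4%, against 38.2% of all genes and 70.7% of the expressed protein-coding ones. Of the 5 genes with a CArG box, Actg1, Myl6 and Vcl also had a GC box in that window, without overlap. Arpc4 and Myo1e had none. Matches are letters in a window and not evidence of binding. The promoters of Actg1, Vcl and Myo1e are printed. Actg1 is the only listed actin with a window, so a box was not looked for in Actb. Vcl and Myo1e had a coefficient of variation between libraries of 13.3% and 22.9%. The other genes with a box, Actg1, Arpc4 and Myl6, had 3.61%, 4.02% and 8.07%. Fscn1, Tmsb10 and Flna had 30.3%, 22.4% and 19.9%, and their windows held no box. A link between the box and this spread was not tested. The printed promoters run 5′ to 3′ on the gene's strand up to the first annotated exon base, with the CArG box in capitals. The box starts 90, 227 and 32 bases before the RefSeq start, and the stretches lie at chr11:120348543-120348745 on the minus strand and at chr14:20929148-20929397 and chr9:70207100-70207349 on the plus strand.
Actg1: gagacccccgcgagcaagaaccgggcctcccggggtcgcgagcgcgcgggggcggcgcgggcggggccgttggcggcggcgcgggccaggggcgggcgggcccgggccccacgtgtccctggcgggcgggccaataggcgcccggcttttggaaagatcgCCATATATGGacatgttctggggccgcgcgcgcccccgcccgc
Vcl: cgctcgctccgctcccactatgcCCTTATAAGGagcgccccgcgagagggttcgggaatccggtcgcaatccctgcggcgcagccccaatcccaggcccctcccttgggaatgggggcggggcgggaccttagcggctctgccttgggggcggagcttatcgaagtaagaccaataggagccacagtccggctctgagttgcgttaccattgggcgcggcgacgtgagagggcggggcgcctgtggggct
Myo1e: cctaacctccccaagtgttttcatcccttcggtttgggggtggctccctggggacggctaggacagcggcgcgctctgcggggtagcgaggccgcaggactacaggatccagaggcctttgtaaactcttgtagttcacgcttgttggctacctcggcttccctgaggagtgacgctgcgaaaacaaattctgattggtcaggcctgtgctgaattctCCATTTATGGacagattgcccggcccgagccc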

How the data were processed

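Per library, the authors deposited expected counts and TPM per gene and per transcript, in the column layout of RSEM. A second transcript table holds estimated counts and TPM, deposited by the authors in the layout of kallisto. Assembly mm10 and annotation M21 were used, per the labels and the notes deposited with the tables. The sources used here do not give the aligner, quantifier, versions or strandedness.

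Gene counts were rounded. Spike-in, phiX174 and numbered entries were left out; phiX174 took 0.449%, 0.203% and 0.141% of counts in replicates 1, 2 and 3. Libraries were compared by a chi-square test per gene against TMM effective sizes (edgeR 4.0.16), for genes whose counts summed to at least 30, and p-values were adjusted by Benjamini-Hochberg over all genes at 0.05. TPM differences used log2(TPM + 1). Quantifications were compared with 0.1 added, after rescaling TPM over protein-coding genes, for genes at 5 or more. Precision is limited by counting and by 3 libraries. Coding sequences and exons came from GENCODE M21, and sequences of unequal length were aligned with Biopython 1.88. Promoters came from RefSeq. R 4.3.3 with DESeq2 1.42.0 and Python 3.11.15 with scipy 1.17.1 were also used.

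The genes, pairs and wider list were chosen with earlier results of these data known. Values per library are given for all paired genes, the 3 highest and 3 lowest, those with a ratio of 1.5 or more and the highest other gene of each role; Flna, Tln1, Arpc1b, Cdc42, Vasp and the 3 printed promoters were chosen after their values were seen. Alternatives varied the size factors, the filter, the pseudocount, the scaling, the quantification, the transcripts summed and the libraries. Of 104 symbols in the wider list, 102 matched. The erythroid marker list is not reported here.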

Additional observations from a re-analysis of the deposited data

How the results depend on the processing

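The count of 47 actin genes differing between libraries stayed 47 with DESeq2 size factors, against 49.2% of all genes tested. It also stayed 47 without a filter and with a summed count of 300 or more, against 31.5% and 54.3% of genes. All 51 actin genes passed either filter, so these settings could change only the adjustment. The count was 33 without replicate 1, 39 without replicate 2 and 38 without replicate 3, against 27.5%, 40.9% and 34.4% of all genes tested. With the second quantification it was 46, against 55.5% of genes; Pfn1 and Cap1 gained the call, and Wasf2, Rhoa and Capza2 lost it. The count of 3 genes whose highest library reached 1.5 times the lowest was 0 without replicate 1, against 8.32% of genes, 1 without replicate 3, against 9.997%, and 2 without replicate 2, against 12.5%. It was 4 with the second quantification, which added Flna, against 30.3%. The median level of 82.5 TPM was 332 when rescaled over protein-coding genes and 39.9 in the second quantification; both follow from the scale, since coding genes held 17.6%, 9.16% and 8.32% of TPM in that quantification. On deposited TPM without rescaling, 51 of the 51 genes were 1.5-fold or more apart between quantifications, as were 97.2% of genes. The median non-coding share of 0.807% was 1.29% in the second quantification, and that of protein-coding genes moved from 1.90% to 3.72%. The cause was not tested. All 12 pairs kept their direction with the other pseudocount, in the second quantification, on counts not divided by length and without each library. Leaving out the division by length moved the ratio by over 1.5 times for 4 of them: the log2 difference was 1.14 in place of 2.15 for Evl minus Vasp, 0.24 in place of 0.88 for Actr3 minus Actr2, -1.73 in place of -0.50 for Coro1a minus Coro1c and 3.17 in place of 2.51 for Tmsb4x minus Tmsb10. On protein-coding transcripts alone, chosen after seeing the data, Myl12a minus Myl12b turned to 0.35 and the other 11 kept their direction. No paired analysis was possible because the series has 1 group, so no replicate number is shared between groups; the gene pairs are differences between genes within a library. Depth limits Fscn1 most, at 60 reads in replicate 1.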
